A study of Mus musculus with 8 samples.

Results

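The genes of the major histocompatibility complex (MHC) and their partners that bring peptides to the cell surface for T cells were examined in liver RNA of *Apoe*-/- mice. They were taken by symbol, 7 of class II (*H2-Aa*, *H2-Ab1*, *H2-Eb1*, *H2-DMa*, *H2-DMb1*, *Cd74* and *Ciita*) and 3 of class I (*H2-K1*, *H2-D1* and *B2m*). All 10 were in the table of 16540 gene symbols, and all 10 were among the 12307 genes left by the filter on low counts. The livers came from 4 vehicle-treated and 4 ISOGK-treated mice, given as male in the title of the series, with 1 library per mouse. By their labels the mice lacked *Apoe*, which makes them prone to high plasma cholesterol, and ate a Western diet. ISOGK (isoginkgetin), a plant biflavonoid studied as an inhibitor of ATP citrate lyase, was injected at 20 mg/kg per day for 8 weeks, and control mice received the vehicle, DMSO. Ages are not given in the labels. Between 17457106 and 24461854 reads were counted on genes per library.

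MHC class I molecules sit on nearly every nucleated cell and show peptides from the cell's own proteins to CD8 T cells. The heavy chains are encoded by *H2-K1* and *H2-D1*, and *B2m* encodes the light chain that they need for stability. MHC class II molecules are made mostly by dendritic cells, B cells and macrophages, and in liver also by Kupffer cells and other non-parenchymal cells, and show peptides from engulfed material to CD4 T cells. *H2-Aa*, *H2-Ab1* and *H2-Eb1* encode chains of the class II molecules, *Cd74* encodes the invariant chain that holds their groove until a peptide arrives, and *H2-DMa* and *H2-DMb1* encode the chains of the exchange factor that loads the peptide. *Ciita* encodes the coactivator that class II genes depend on, and interferon gamma raises its expression in many cells.

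No MHC gene passed the test between ISOGK-treated and vehicle-treated mice when all libraries were used. In edgeR's quasi-likelihood test 0 of the 10 genes had an adjusted p under 0.05, against 7.55% of all tested genes (929 of 12307). At an unadjusted p under 0.05 the count was also 0, against 24.2% of all tested genes (2973), and DESeq2 and limma-voom each called 0, with 0 at an unadjusted p under 0.05, against 11.7% and 7.02% of all tested genes called. The median log2 fold change was 0.41 over the class II genes, 0.03 over the class I genes and 0.0018 over all tested genes. The class I median turned to -0.10 with library size alone, where the median over all genes was -0.13, and to -0.022 or -0.0068 without vehicle-treated mouse 1 or 4. Of the 929 genes 506 were higher and 423 lower (262 higher and 804 lower with scaling by library size only), and the count was 511, 379, 496 or 550 without vehicle-treated mouse 1, 2, 3 or 4 and 471 without ISOGK-treated mouse 2. The result for class II depended on which mice were used. Without vehicle-treated mouse 3, 5 class II genes and no class I gene had an adjusted p under 0.05 in edgeR, against 496 of 12422 tested genes. Class II genes varied together between mice, as described below, so these calls are not independent of each other. In that fit the class II median was 0.94. Without vehicle-treated mouse 1 it was 0.17. The difference between the classes was not tested. In RNA from whole liver, fewer cells of a type and less RNA per cell cannot be told apart.

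The chains of class II varied far more between vehicle-treated mice than between ISOGK-treated mice. *H2-Aa*, which encodes an alpha chain (chromosome 17, 34282744 to 34287823 in GRCm38, minus strand), had 30.7, 64.9, 146 and 54.7 CPM (counts scaled to library size with TMM factors) in vehicle-treated mice 1 to 4. In ISOGK-treated mice 1 to 4 it had 107, 79.5, 109 and 103 CPM. Vehicle-treated mouse 3 was the highest of all and mouse 1 the lowest, so the ISOGK-treated mice lay inside the range of the vehicle group. The group means were 74.2 ± 50.2 and 99.6 ± 13.6 CPM (SD, n = 4 each). Its log2 fold change was 0.42 (SE 0.44, adjusted p = 0.613 in edgeR), with a 95% confidence interval of -0.61 to 1.45. The two-sided exact permutation test of log2 CPM gave p = 0.229, where 0.0286 is the smallest p that 4 mice against 4 allow.

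The beta chain gene *H2-Ab1* (chromosome 17, 34257689 to 34269419, plus strand) followed the same order, with 19.7, 39.7, 90.5 and 32.7 CPM in the vehicle group. The ISOGK group had 66.3, 48.9, 66.3 and 62.3 CPM. The levels of the other beta chain gene, *H2-Eb1* (chromosome 17, 34305867 to 34316674, plus strand), were 18.9, 33.7, 80.1 and 27.4 CPM in the vehicle group. In ISOGK-treated mice they were 63.3, 39.6, 58.2 and 54.0 CPM. Both genes were highest in vehicle-treated mouse 3 and lowest in vehicle-treated mouse 1, and their groups overlapped. *H2-Ab1* had a log2 fold change of 0.41 (SE 0.43, adjusted p = 0.618 in edgeR) and *H2-Eb1* one of 0.42 (SE 0.44, adjusted p = 0.612 in edgeR).

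*Cd74*, the invariant chain gene (chromosome 18, 60803848 to 60812652, plus strand), had 64.7, 105, 226 and 88.4 CPM in vehicle-treated mice and 167, 118, 201 and 159 CPM in ISOGK-treated mice. Again vehicle-treated mouse 3 stood at the top and mouse 1 at the bottom of the vehicle group. Its log2 fold change was 0.41 (SE 0.38, adjusted p = 0.570 in edgeR), with a 95% confidence interval of -0.49 to 1.30. The exchange factor genes had lower counts. *H2-DMa* (chromosome 17, 34119541 to 34139101, plus strand) had 3.76, 5.85, 12.1 and 5.63 CPM under vehicle and 8.58, 4.91, 8.42 and 8.23 CPM under ISOGK, a log2 fold change of 0.13 (SE 0.34, adjusted p = 0.851 in edgeR). *H2-DMb1* (chromosome 17, 34153072 to 34160230, plus strand) had 2.96, 5.81, 11.1 and 5.23 CPM under vehicle and 10.7, 8.50, 8.54 and 7.75 CPM under ISOGK. The log2 fold change of *H2-DMb1* was 0.49 (SE 0.33, adjusted p = 0.402 in edgeR), the largest of the class II genes. All ISOGK-treated mice lay inside the range of the vehicle group for both exchange factor genes. The direction of *H2-DMa* was the only one among class II genes to turn: its log2 fold change was -0.013 with library size alone and -0.065 without vehicle-treated mouse 1.

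*Ciita* (chromosome 16, 10480059 to 10528418, plus strand) rested on 25 to 130 counts per library. Its levels were 1.25, 2.22, 5.06 and 1.88 CPM in vehicle-treated mice and 3.78, 2.80, 4.35 and 2.88 CPM in ISOGK-treated mice, with the same vehicle-treated mice at the top and the bottom as for the chains. The log2 fold change was 0.39 (SE 0.37, adjusted p = 0.567 in edgeR). Counting error alone would give an SD of about 0.180 on the log2 scale at the mean count of *Ciita*, while the SD between vehicle-treated mice was 0.815. No molecular identifiers are described for these reads, so the smaller value covers counting error only.

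**Figure D1:**
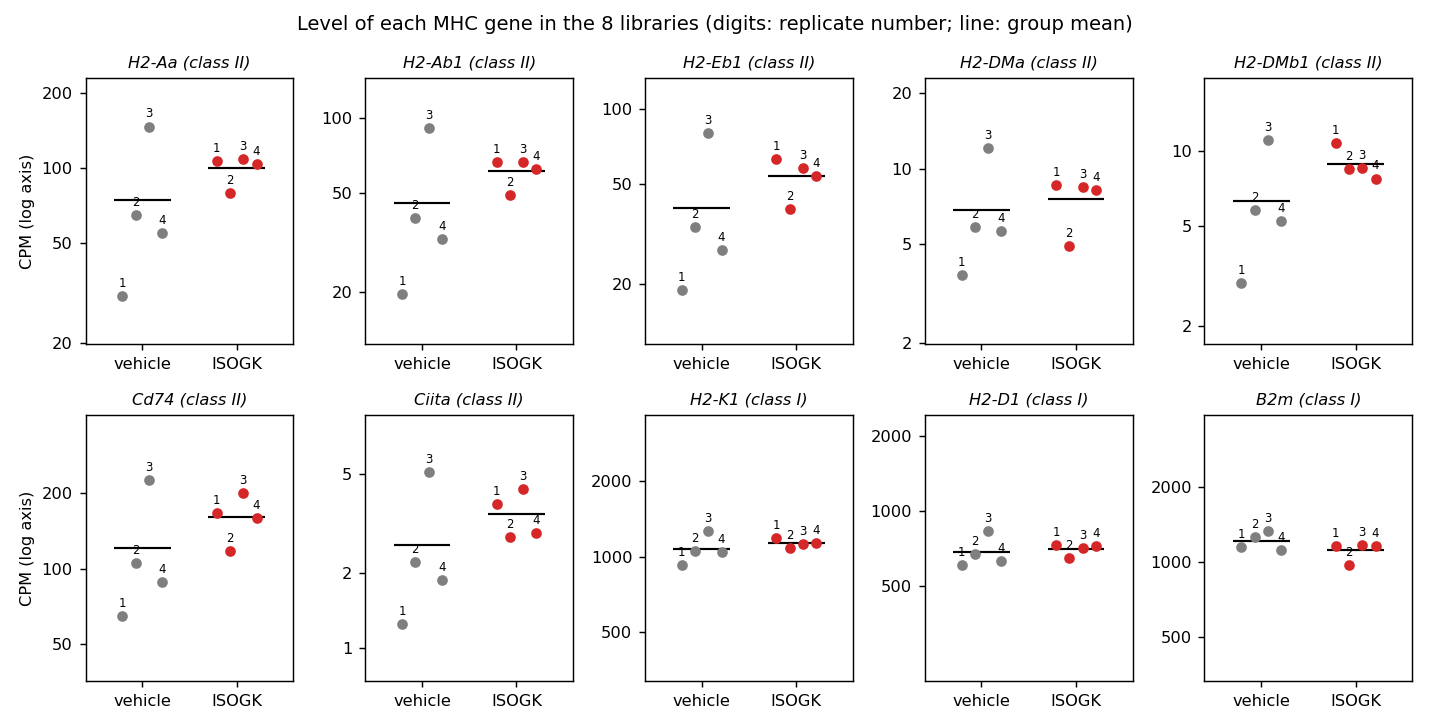
CPM of each MHC gene (log axis) in the 4 vehicle-treated (grey) and 4 ISOGK-treated (red) livers, with replicate numbers beside the points and group means as lines; every panel spans the same ratio from bottom to top. Vehicle-treated mouse 3 is the highest and mouse 1 the lowest of the vehicle group for all 7 class II genes, while the class I genes stay within a 1.38-fold range there.

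Class I genes were abundant and varied less between vehicle-treated mice than class II genes. *H2-K1* (chromosome 17, 33996017 to 34000347, minus strand) had 923, 1056, 1272 and 1043 CPM in vehicle-treated mice and 1185, 1081, 1122 and 1134 CPM in ISOGK-treated mice. *H2-D1* (chromosome 17, 35262730 to 35267499, plus strand) had 609, 675, 830.5 and 632 CPM under vehicle and 728, 647, 710.0 and 722 CPM under ISOGK. Vehicle-treated mouse 3 was highest and mouse 1 lowest for both heavy chain genes, as for class II. The log2 fold changes were 0.0743 (SE 0.11, adjusted p = 0.725 in edgeR) for *H2-K1* and 0.0313 (SE 0.11, adjusted p = 0.897 in edgeR) for *H2-D1*, with 95% confidence intervals of -0.16 to 0.31 and -0.21 to 0.28. *B2m* (chromosome 2, 122147686 to 122153083, plus strand) had 1147, 1259, 1330.1 and 1115 CPM in vehicle-treated mice and 1158, 976, 1167 and 1161 CPM in ISOGK-treated mice. ISOGK-treated mouse 2 was the lowest of all, and the groups overlapped. The log2 fold change of *B2m* was -0.12 (SE 0.10, adjusted p = 0.516 in edgeR), with a 95% confidence interval of -0.34 to 0.10. With library size alone *H2-K1* had a log2 fold change of -0.060 and *H2-D1* one of -0.10, where the median over all genes was -0.13. *B2m* had -0.25 there (adjusted p = 0.168 in edgeR, the smallest over all alternatives), and was the 1 MHC gene with an unadjusted p under 0.05 with that scaling (0.0429). Leaving out vehicle-treated mouse 1 or 4 also turned the sign for *H2-D1*, to -0.022 and -0.0068.

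Compared per kilobase of exon, *B2m* was the most abundant, with 1410.1 CPM per kb under vehicle and 1297 under ISOGK. *H2-K1* followed with 365 and 385, and *H2-D1* with 266 and 272. Among class II genes *Cd74* was highest, at 72.2 and 96.0 CPM per kb. The chain genes *H2-Eb1*, *H2-Aa* and *H2-Ab1* had 20.6, 19.5 and 17.8 CPM per kb in the vehicle group, closer to each other than the spread between mice. The exchange factor genes *H2-DMb1* and *H2-DMa* had 3.73 and 1.98, and *Ciita* had 0.273. Lengths are the union of annotated exons and not those of the transcripts in use. The order of the genes was the same in the ISOGK group.

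The promoters of these genes are shown as a description. Whether they have a part in the joint variation of class II and class I between mice, described below, was not tested. RefSeq promoters (GRCm38.p6, 250 bases before to 50 after the start site) were found for 7 of the 10 genes, and not for *H2-Ab1*, *Cd74* and *Ciita*. Known regulatory elements of MHC genes include an X2 box and a Y box. Their cores were searched on both strands as TGANG followed on the same strand by ATTGG, with 20 to 35 bases between the starts. The pair was found in 6 of the 7 genes and in 3.73% of 32851 promoters in the table, and not in those of *H2-DMa*. The letters and the spacing were chosen with these promoters in mind, so this contrast supports nothing. The first pair in each gene, with both cores in capitals, reads 5′ to 3′ on the gene's own strand:
H2-Aa: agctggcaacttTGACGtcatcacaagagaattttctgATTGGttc
H2-Eb1: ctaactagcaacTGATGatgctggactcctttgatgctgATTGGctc
H2-DMb1: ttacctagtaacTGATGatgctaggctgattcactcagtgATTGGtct
H2-K1: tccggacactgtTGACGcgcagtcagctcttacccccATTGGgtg
H2-D1: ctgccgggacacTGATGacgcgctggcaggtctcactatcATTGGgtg
B2m: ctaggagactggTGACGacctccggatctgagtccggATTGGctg
These stretches lie at chr17:34287864-34287909 (minus strand) for *H2-Aa*, chr17:34305769-34305815 (plus) for *H2-Eb1* and chr17:34153090-34153137 (plus) for *H2-DMb1*. Those of class I lie at chr17:34000356-34000400 (minus) for *H2-K1*, chr17:35262978-35263025 (plus) for *H2-D1* and chr2:122147597-122147641 (plus) for *B2m*. The starts of the cores were 25 to 28 bases apart.

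The heavy chain genes of class I held further letters that no promoter found for class II held. An interferon-stimulated response element was searched as TTTCNNTTC and an NF-kappa B site as GGGATTCCC, on both strands. They were present in 7.52% and 0.353% of all promoters in the table, and both were present in *H2-K1* and *H2-D1*, shown with the matches in capitals:
H2-K1: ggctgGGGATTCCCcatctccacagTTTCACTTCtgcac
H2-D1: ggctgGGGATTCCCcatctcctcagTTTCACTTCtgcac
The first lies at chr17:34000424-34000462 (minus strand) and the second at chr17:35262919-35262957 (plus strand). Neither motif was found for *B2m*, *H2-Aa*, *H2-Eb1*, *H2-DMa* or *H2-DMb1* in this window. A match of letters is a description and not a site in use. These letters too were chosen with these promoters in mind, so their presence here supports nothing.

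Within the vehicle group the class II genes varied together from mouse to mouse. All 7 were highest in mouse 3 and lowest in mouse 1, with a ratio between those mice of 3.22 for *H2-DMa* to 4.77 for *H2-Aa*. Among ISOGK-treated mice the ratio of highest to lowest was 1.35 to 1.75. For class I genes it was 1.19 to 1.38 with vehicle and 1.096 to 1.19 with ISOGK. Only 0.861% of all tested genes had a larger SD of log2 CPM between vehicle-treated mice than *H2-Aa*, and 2.52% had one larger than *H2-DMa*, the class II gene with the smallest. In the ISOGK group 20.6% to 57.9% of genes had a larger SD than the class II genes. The class I genes lay closer to the middle of all genes in the vehicle group, where 38.8% to 68.6% had a larger SD. Among genes with a mean of at least 10 CPM these shares were 19.4% for *H2-D1*, 21.6% for *H2-K1* and 54.1% for *B2m*. In the ISOGK group 81.7% to 97.6% of all tested genes had a larger SD than the class I genes. No test of the difference in spread between the groups was made.

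**Figure D2:**
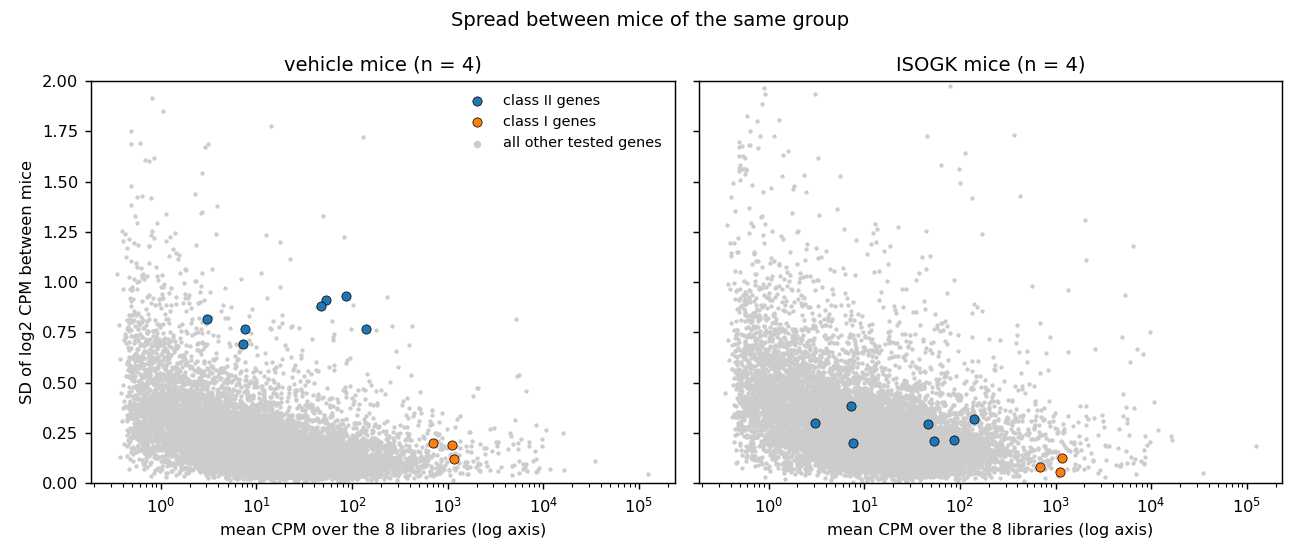
SD of log2 CPM between the 4 mice of a group against the mean CPM over the 8 libraries (log axis), for class II genes (blue), class I genes (orange) and all other tested genes (grey); 18 genes lie above the top of the axis in one group or the other. In vehicle-treated mice the class II genes lie between 0.692 and 0.929, and in ISOGK-treated mice between 0.198 and 0.384.

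After the group means were taken off, class I and class II deviated in the same direction but with different size in the 8 libraries, except vehicle-treated mouse 2, which was close to the mean of its group in both. The mean log2 CPM of the class II chains, exchange factor genes and *Cd74* spanned a 3.94-fold range in the vehicle group and a 1.44-fold range in the ISOGK group. The mean over *H2-K1*, *H2-D1* and *B2m* spanned 1.30-fold and 1.14-fold ranges. Deviations of the class II mean correlated with those of the class I mean (Pearson's r = 0.965, Spearman's rho = 0.976, n = 8), and without the 2 libraries farthest from the median r was 0.966. One unit of deviation on the log2 scale in class I went with 4.51 units in class II. Within class II the median r over 21 pairs of genes was 0.969 (0.865 to 0.999), between classes it was 0.941 over 21 pairs (0.559 to 0.984), and within class I it was 0.833 over 3 pairs (0.677 to 0.948). In the ISOGK group alone *H2-DMb1* had r of 0.142 to 0.473 with the other class II genes, against 0.978 to 0.998 in the vehicle group. The other class II pairs had 0.635 to 0.996 in the ISOGK group. These values are descriptions over mice that share libraries and scaling. *Ciita* had r = 0.974 with the class II mean (0.814 without the 2 libraries farthest from the median).

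**Figure D3:**
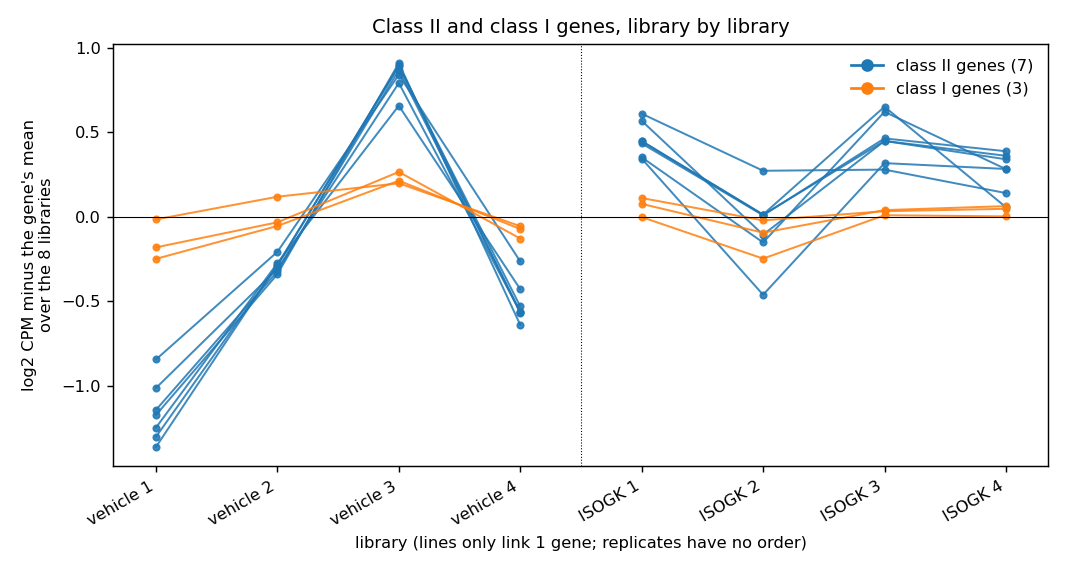
log2 CPM of each MHC gene minus its mean over the 8 libraries, for the 7 class II genes (blue) and the 3 class I genes (orange); lines link the points of a gene and the replicates have no order. The class II lines run between vehicle-treated mouse 1 and mouse 3 over a much wider range than the class I lines, and ISOGK-treated mice lie between those extremes.

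The size of the class II difference depended on vehicle-treated mice 1 and 3. In the whole data the mean log2 CPM of class II minus that of class I was -5.91, -5.20, -4.31 and -5.32 in vehicle-treated mice 1 to 4. It was -4.51, -4.86, -4.51 and -4.65 in ISOGK-treated mice 1 to 4, which leaves vehicle-treated mouse 3 above all of them and the others below. Without vehicle-treated mouse 3 the median log2 fold change of class II was 0.94, and *H2-Eb1* had 1.01 (SE 0.21, adjusted p = 0.0304 in edgeR), *H2-Ab1* 0.99 (SE 0.22, adjusted p = 0.0373 in edgeR) and *H2-Aa* 0.99 (SE 0.23, adjusted p = 0.0485 in edgeR). *Cd74* and *H2-DMb1* also passed, with edgeR adjusted p of 0.0363 and 0.0434, while *Ciita* and *H2-DMa* did not (0.0719 and 0.193). Among all tested genes 496 of 12422 passed in that fit. In CPM scaled over all 8 libraries, all 4 ISOGK-treated mice lay above the other 3 vehicle-treated mice for each class II gene except *H2-DMa*. The same held for the class I gene *H2-K1*. Vehicle-treated mouse 3 was the highest of its group for each of these genes, so leaving it out favours such a gap. The share of all tested genes without overlap was not counted, so this describes these genes only. Over all 16 alternatives the edgeR, DESeq2 or limma-voom adjusted p ran from 0.0304 to 0.828 for *H2-Eb1*, 0.0373 to 0.835 for *H2-Ab1*, 0.0485 to 0.826 for *H2-Aa*, 0.0363 to 0.794 for *Cd74*, 0.0434 to 0.612 for *H2-DMb1*, 0.0719 to 0.824 for *Ciita* and 0.193 to 0.986 for *H2-DMa*. Without vehicle-treated mouse 1 the median was 0.17 and no gene passed. When each of the 8 mice was left out in turn, class I medians ran from -0.022 to 0.14. No label sets vehicle-treated mouse 3 apart.

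**Figure D4:**
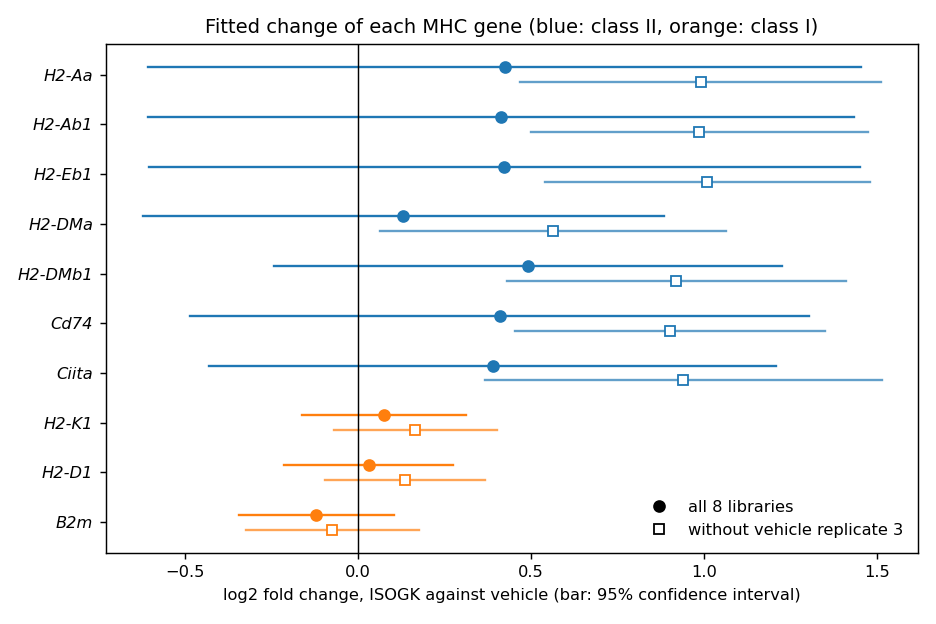
log2 fold change of each MHC gene, ISOGK against vehicle, with 95% confidence intervals, from all 8 libraries (filled circles) and without vehicle-treated mouse 3 (open squares). With all libraries every interval crosses 0; without that mouse the intervals of the 7 class II genes lie above 0 and those of the 3 class I genes cross it.

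Other genes of the pathway were examined in lists, whose counts stand beside the 7.55% called by edgeR, 11.7% by DESeq2 and 7.02% by limma-voom among all tested genes, and the 24.2% with an unadjusted p under 0.05 in edgeR. Of 14 genes that cut, transport and load class I peptides, 0 passed the test in edgeR (2 at an unadjusted p under 0.05) and 0 in limma-voom, while DESeq2 called 1 (*Canx*), and the median log2 fold change was -0.15. The lowest p in that list was that of *Canx*, encoding the chaperone calnexin, with a log2 fold change of -0.36 (SE 0.12, adjusted p = 0.0824 in edgeR). *Erap1*, which trims peptides, and *Psmb10*, a subunit of the immunoproteasome, had -0.32 (SE 0.11, adjusted p = 0.109 in edgeR) and -0.40 (SE 0.19, adjusted p = 0.216 in edgeR). Of the 14 tested genes among 16 other class II genes, proteases and regulators, 1 rose and 1 fell. *Ctsl*, which encodes the protease cathepsin L, had 611 ± 96.8 CPM under vehicle and rose to 974 ± 151 CPM under ISOGK (SD, n = 4 each), with a log2 fold change of 0.67 (SE 0.14, adjusted p = 0.0152 in edgeR). *Ctsb*, encoding cathepsin B, had 899.5 ± 29.7 CPM under vehicle and fell to 663 ± 32.5 CPM under ISOGK, by a log2 ratio of -0.44 (SE 0.09, adjusted p = 0.0118 in edgeR). Both kept an adjusted p under 0.05 in each of the 8 fits without a mouse, and cathepsin D (*Ctsd*) had -0.25 (SE 0.10, adjusted p = 0.142 in edgeR). With scaling by library size only, where the median over all genes was -0.13, *Ctsd* had -0.38 (edgeR adjusted p = 0.0391, with 0.0391 to 0.284 over all alternatives) and *Canx* -0.49 (0.0305, with 0.0305 to 0.211), and both passed. The list's median was -0.17.

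Among class Ib and class I-like genes, of which 15 of 18 were tested, 0 passed in edgeR (4 at an unadjusted p under 0.05, against 24.2% of all tested genes), 2 in DESeq2 (*Hfe* and *Fcgrt*, against 11.7%) and 0 in limma-voom. *Hfe*, a class I-like gene of iron control, had a log2 fold change of 0.37 (SE 0.10) with an adjusted p in edgeR just over 0.05, or 0.0164 to 0.142 over the alternatives. *Hfe* and *Fcgrt* passed without ISOGK-treated mouse 3 (edgeR adjusted p = 0.0164 and 0.0278). *Fcgrt*, encoding the neonatal Fc receptor, and *H2-T22* had 0.38 (SE 0.11, adjusted p = 0.0642 in edgeR) and -0.34 (SE 0.13, adjusted p = 0.137 in edgeR). The list's median was 0.02.

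Interferon gamma is known to raise both classes, and genes of its pathway were lower where they passed. Deviations of the class II mean from the group means had r = 0.498 with the sum of the signalling list (n = 8). Without the 2 libraries farthest from the median r was 0.764. With the sum of the response genes r was 0.546 (0.578 without those 2 libraries). In the list of signalling genes and regulators 2 of 8 tested genes fell and 0 rose in edgeR, against 7.55% called of all tested genes, with a median of -0.37. At an unadjusted p under 0.05 there were 6 of 8, against 24.2% of all tested genes. Of these 1 was higher, the receptor gene *Ifngr2*, named after its values were seen. It had a log2 fold change of 0.27 (SE 0.11, adjusted p = 0.164 in edgeR). Limma-voom called 2 and DESeq2 3 (against 11.7% of all tested genes), with *Jak2* besides *Irf1* and *Irf2*. *Irf1*, encoding a transcription factor of the interferon response, had 35.1, 33.0, 36.1 and 30.1 CPM in vehicle-treated mice and 28.5, 21.1, 26.3 and 22.5 CPM in ISOGK-treated mice, without overlap, and a log2 fold change of -0.45 (SE 0.11, adjusted p = 0.0348 in edgeR). *Irf2* had a log2 fold change of -0.50 (SE 0.13, adjusted p = 0.0407 in edgeR). The call for *Irf1* was lost without vehicle-treated mouse 1, 2 or 3 or ISOGK-treated mouse 2 or 4 (edgeR adjusted p of 0.0708 to 0.0999), and that for *Irf2* without any of these or vehicle-treated mouse 4 (0.0523 to 0.113). *Jak2*, a kinase of the receptor, had -0.58 (SE 0.18, adjusted p = 0.0735 in edgeR), and passed in DESeq2 (adjusted p = 0.0354), and in edgeR with a block on replicate number (0.0379), with scaling by library size only (0.0499) and without ISOGK-treated mouse 1 (0.0180), with 0.0180 to 0.185 over all alternatives. *Ifng* itself and *Socs1* were too low to be tested.

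Of 11 tested interferon gamma response genes 1 fell and 0 rose in edgeR, against 7.55% called of all tested genes, limma-voom called 1 and DESeq2 2 (*Gbp7* and *Iigp1*, against 11.7% of all tested genes). At an unadjusted p under 0.05 there were 4 of 11 in edgeR, against 24.2% of all tested genes, and all 11 had log2 fold changes under 0 (median -0.39). *Gbp7*, which encodes a guanylate-binding protein, had 5.92, 7.87, 8.80 and 5.90 CPM in vehicle-treated mice and 5.003, 2.59, 3.45 and 1.78 CPM in ISOGK-treated mice, with a log2 fold change of -1.15 (SE 0.27, adjusted p = 0.0281 in edgeR). Its call was lost without vehicle-treated mouse 2 or 3 or ISOGK-treated mouse 2 (edgeR adjusted p = 0.0887, 0.0780 and 0.0837). The response genes *Iigp1* and *Gbp6* had -0.62 (SE 0.20, adjusted p = 0.0814 in edgeR) and -0.83 (SE 0.32, adjusted p = 0.145 in edgeR), and *Iigp1* passed in DESeq2 (adjusted p = 0.0200) and without ISOGK-treated mouse 1 (edgeR adjusted p = 0.00756, with 0.00756 to 0.185 over all alternatives). *Gbp6* passed with the replicate block (edgeR adjusted p = 0.0381, with 0.0381 to 0.294 over all alternatives). The costimulatory ligands, which accompany antigen presentation on the cell surface, gave 0 calls among 5 tested genes in edgeR (1 at an unadjusted p under 0.05), DESeq2 and limma-voom, with a median of -0.28. *Cd86* had -0.58 (SE 0.24, adjusted p = 0.160 in edgeR), and *Cd80* and *Cd40* had -0.42 (SE 0.35, adjusted p = 0.515 in edgeR) and -0.28 (SE 0.36, adjusted p = 0.682 in edgeR). When each mouse was left out in turn, these ran from -0.70 to -0.19 for *Cd80* and from -0.49 to -0.037 for *Cd40*.

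**Figure D5:**
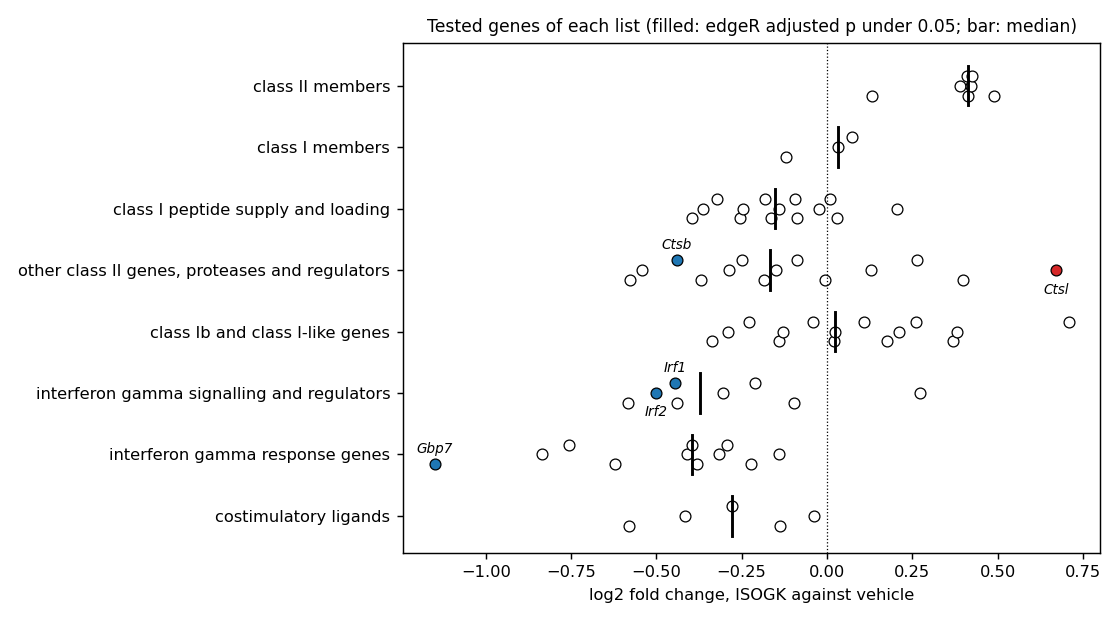
log2 fold change of each tested gene in the MHC lists and the lists of pathway genes (points; filled where the edgeR adjusted p was under 0.05, red higher and blue lower) with the median of each list as a bar. The median of the class II genes is 0.41, that of the class I genes 0.03 and that of the interferon gamma response genes -0.39.

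Markers of the cells that can carry class II did not follow a common course. In edgeR 1 of 11 tested Kupffer cell and macrophage markers, 1 of 8 markers of recruited and lipid-associated macrophages and 1 of 4 neutrophil markers passed, against 7.55% of all tested genes. Each of these lists had 3 genes at an unadjusted p under 0.05 in edgeR, against 24.2% of all tested genes. Limma-voom called 1 in each, while DESeq2, with 11.7% of all tested genes called, called 2 (*Cd5l* and *Cd68*), 1 and 3 (*S100a9*, and *S100a8* and *Retnlg*, named after their values were seen). In edgeR 0 passed among 5 dendritic cell, 3 B cell and 5 hepatocyte markers and 1 muscle marker, with 0 at an unadjusted p under 0.05 and 0 in DESeq2 and limma-voom. Among 6 T and NK cell, 7 sinusoidal endothelial cell and 6 pan-leukocyte markers 0 passed in edgeR, with 1 in each list at an unadjusted p under 0.05, and limma-voom called 0. DESeq2 called 0 of the first and second of these lists and 1 of the third (*Laptm5*, named after its values were seen). The median log2 fold change was -0.39 over the Kupffer cell and macrophage list, with 1 of 11 genes above 0, and -0.28 over the pan-leukocyte list, with 1 of 6 above 0. The summed level of 11 Kupffer cell and macrophage markers was 1755, 1509.6, 1670.0 and 1386 CPM in vehicle-treated mice 1 to 4 and 1449, 1112, 1247 and 1159.7 CPM in ISOGK-treated mice 1 to 4. Its most abundant gene, *Cd5l*, had -0.39 (SE 0.12, adjusted p = 0.0639 in edgeR), or an adjusted p of 0.0337 without ISOGK-treated mouse 1 (0.0159 to 0.158 over all alternatives), and *Cd68*, lower in 4 of 4 ISOGK-treated mice than in any vehicle-treated mouse, fell by 0.57 in log2 terms (SE 0.11, adjusted p = 0.00900 in edgeR). Of the 8 markers of recruited and lipid-associated macrophages, the sum was 225, 238, 219.8 and 262 CPM in vehicle-treated mice and 165, 170.3, 157 and 140.4 CPM in ISOGK-treated mice, lower without overlap. Without *Gpnmb*, its most abundant gene, the sum was 72.0, 74.4, 70.7 and 79.8 CPM in vehicle-treated mice and 86.9, 105, 84.98 and 72.4 CPM in ISOGK-treated mice, with overlap. The median log2 fold change of the list was 0.09, and 5 of its 8 genes were above 0. *Gpnmb* had a log2 fold change of -1.19 (SE 0.10, adjusted p = 6.48e-05 in edgeR).

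Dendritic cell markers, 9 listed and 5 tested, summed to 10.3, 14.0, 17.8 and 13.7 CPM in vehicle-treated mice and 14.8, 15.2, 13.1 and 11.3 CPM in ISOGK-treated mice. *Zbtb46*, the most abundant of them, had 0.0459 (SE 0.18, adjusted p = 0.905 in edgeR) as its log2 fold change. *Ighm*, the most abundant B cell marker, had 3.81, 5.78, 3.86 and 4.82 CPM in vehicle-treated mice and 4.76, 14.4, 4.35 and 3.67 CPM in ISOGK-treated mice, and 0.57 (SE 0.43, adjusted p = 0.467 in edgeR) as its log2 fold change. Its sign turned, to -0.10, without ISOGK-treated mouse 2. The sinusoidal endothelial cell sum was 357, 385, 409 and 406 CPM under vehicle and 389, 360.0, 404 and 388 CPM under ISOGK, with *Stab2* as its most abundant gene. Deviations of the class II mean from the group means had r = 0.750 with the dendritic cell sum (-0.288 without the 2 libraries farthest from the median) and 0.760 with the sinusoidal endothelial cell sum (0.568 without them, n = 8). With the Kupffer cell and macrophage sum r was 0.159 (0.810 without those 2 libraries), and with the pan-leukocyte sum it was 0.307 (0.749 without them). With the B cell sum it was -0.100 (-0.753 without them). The part of these cells in the class II values was not tested.

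Neutrophil markers summed to 5.32, 5.89, 7.13 and 4.29 CPM in vehicle-treated mice and 18.0, 9.55, 12.4 and 7.91 CPM in ISOGK-treated mice, without overlap. Without *S100a9*, the most abundant, the sum was 2.56, 2.97, 3.39 and 2.37 CPM in vehicle-treated mice and 7.504, 3.32, 5.20 and 3.56 CPM in ISOGK-treated mice, with overlap. *S100a9* rose by 1.31 on the log2 scale (SE 0.27, adjusted p = 0.0149 in edgeR, 0.0522 without vehicle-treated mouse 2). T and NK cell markers summed to 4.97, 7.04, 7.98 and 3.98 CPM under vehicle and 9.91, 6.39, 5.77 and 5.24 CPM under ISOGK, with *Cd4* as the most abundant. Pan-leukocyte markers summed to 254, 221, 259 and 206 CPM under vehicle and 224, 175, 205 and 170.1 CPM under ISOGK, led by *Lcp1*. Skeletal muscle markers summed to 83.3 CPM in vehicle-treated mouse 4 and to 0.853 to 2.49 CPM in the other 7 libraries. Without that mouse the median log2 fold change of class II was 0.28 and no MHC gene passed. Hepatocyte markers, of which 5 of 6 were in the table, gave sums of 128099 to 165552 CPM over all libraries, led by *Alb*.

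Genes outside the 10 MHC genes were ranked by likeness to the class II mean over the 8 libraries, after the group means were taken off. The highest were *Ms4a4c* (r = 0.976), *Zer1* (0.969), *Wipf2* (0.952), *Ints1* (0.952) and *Men1* (0.951). Without the 2 libraries farthest from the median their r was 0.868, 0.875, 0.866, 0.698 and 0.621, in that order. The genes most like the class I mean, again outside the 10 MHC genes, were *Ms4a6b* (r = 0.970), *Ms4a4c* (0.963), *Ccm2l* (0.963), *Itgb7* (0.952) and *Vill* (0.950). Without those 2 libraries their r was 0.899, 0.899, 0.945, 0.950 and 0.841. Among class II genes, r with the class I mean ran from 0.866 (*H2-DMb1*) to 0.980 (*H2-Eb1*). Among class I genes, r with the class II mean was 0.985 for *H2-K1* (0.840 without the 2 libraries farthest from the median), 0.967 for *H2-D1* (0.939) and 0.748 for *B2m* (0.942). *Ms4a4c* rested on 2 to 32 counts per library. Of these genes none passed the test between the groups, although the values of *Ints1* did not overlap (13.3, 13.9, 16.3 and 13.8 CPM against 12.7, 12.3, 12.8 and 12.4 CPM, edgeR adjusted p = 0.289). The genes outside the MHC genes were picked as the highest among all others of the 12307 tested, so their r is high by selection.

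Some counts may be shared with other genes. Of the 50-base stretches in its annotated transcripts, *H2-DMb1* shared 22.7% with its neighbour *H2-DMb2*, *H2-K1* shared 9.63% with other genes (*H2-Q10* the most) and *H2-D1* shared 12.8% (*H2-Q1* the most). For *H2-Aa* the share was 0.49%, and the other 6 genes had no such stretch. *H2-DMa* overlaps 360 exon bases of *Brd2*, and *Ciita* overlaps 329 of *Dexi*, each on the opposite strand. The exons of *H2-DMa* cover 3448 bases and those of *Ciita* 9535. Whether counting used strand is not given in the sources used here, so reads from the overlapping bases cannot be told apart.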

How the data were processed

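Liver RNA was sequenced as single-end Illumina reads. Alignment by the authors used HISAT2, and StringTie gave a raw count for each gene. The deposited table holds these counts as whole numbers, not normalized. The genome build is mm10 per the submitters' processing notes. The annotation release and the use of strand are not given in the sources used here. The DMSO columns are treated here as vehicle, because the paper's drawing of the liver RNA sequencing experiment shows DMSO given to the control mice. Total counts are 17457106 to 24461854 per library. Replicate libraries of a group differed by more than sampling noise (chi-square per gene of 18.1 or more, where about 1 is expected).

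Counts were filtered with filterByExpr (minimum count of 10, minimum total of 15), scaled with TMM and tested in edgeR 4.0.16 (quasi-likelihood, robust option) in R 4.3.3, with no block and p-values adjusted by Benjamini-Hochberg over all tested genes. Single genes also had an exact permutation test on log2 CPM (prior count of 2). Alternatives were DESeq2 1.42.0, limma-voom (limma 3.58.1), edgeR scaled by library size alone or by the size factors of DESeq2, a filter of 1 count in all or of 10 counts in each library, edgeR without its robust option, a block on replicate number, and each mouse left out. The edgeR, DESeq2 and limma-voom steps were tested on simulated data.

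Named genes are the 10 members, and the 3 genes with the smallest p and the called genes of each pathway list (up to 6). The most abundant and the called genes of each marker list are also named, with the 5 genes outside the members most alike to each class. Members and lists were chosen with earlier results of these data known. Motif letters and the spacing of 20 to 35 bases were chosen after the data had been examined and with these promoters in mind, so the share of members that hold them supports nothing. Positions are from GENCODE (GRCm38).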

Additional observations from a re-analysis of the deposited data

Results flagged for a closer look

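In 5 of 138 groups of 4 mice examined, 1 mouse lay far from the others, where the gap to its nearest neighbour, as a share of the whole range of log2 CPM, passed Dixon's limit at the 95% level. Chance alone gives such a gap in about 1 of 20 groups. All 5 concern ISOGK-treated mouse 2, which was the lowest. The gap took 0.833 of the range for *H2-Aa*, 0.924 for *H2-DMa* and 0.957 for *B2m*. For *Canx* it took 0.853 and for *Itgb7* 0.934. Without ISOGK-treated mouse 2 the median log2 fold change was 0.51 for class II and 0.07 for class I, and no MHC gene passed the edgeR test. In the vehicle group, where class II varied most, no MHC gene had such a gap, so vehicle-treated mouse 3 does not count as an outlying value by this measure.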

How the results depend on the processing

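The median log2 fold change of class II was above 0 in each of the 16 alternatives. DESeq2 called 1435 genes, of which 926 were among the 929 that edgeR called, and 0 MHC genes. Scaling by library size alone moved the median over all genes to -0.13, the class I median to -0.10 and the class II median from 0.41 to 0.27, and left 262 higher and 804 lower genes (506 and 423 with TMM). There the log2 fold change turned to -0.013 for *H2-DMa*, -0.060 for *H2-K1*, -0.10 for *H2-D1*, -0.079 for *Zbtb46*, -0.11 for *Cd4*, -0.11 for *Alb*, -0.092 for *Ms4a4c*, -0.092 for *Zer1* and -0.12 for *Itgb7*. *Cd4* also turned, to -0.21 with limma-voom and -0.14 with the replicate block. The causes were not tested.

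Replicate numbers were also used as a block, although the labels do not say that they pair mice: same-numbered mice had correlations of deviations of -0.014 to 0.085, and not every mouse correlated best with its own number. The block gave 827 calls (688 shared), 0 MHC genes, and class medians of 0.61 and 0.04.

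With each mouse left out in turn, calls ran from 379 to 1235 and MHC genes called from 0 to 5, where the 5 came only from leaving out vehicle-treated mouse 3. The class II median ran from 0.17 to 0.94, the class I median from -0.022 to 0.14 and their difference from 0.19 to 0.80. Signs turned within -0.0648 to 0.56 for *H2-DMa*, -0.0221 to 0.14 for *H2-D1*, -0.0648 to 0.15 for *Zbtb46*, -0.24 to 1.33 for *Ms4a4c*, -0.0204 to 0.10 for *Zer1*, -0.13 to 0.53 for *Itgb7*, -0.19 to 0.0541 for *Ccm2l*, -0.69 to 0.23 for *Cd4*, -0.64 to 0.19 for *Eno3*, -0.10 to 0.78 for *Ighm* and -0.0406 to 0.097 for *Alb*. With 4 mice per group and class II varying this much, an interval of -0.61 to 1.45 for *H2-Aa* leaves a fall, no change and a rise possible.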

Other observations

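Single markers stood apart in single mice. The Kupffer cell marker *Vsig4* was at 5.34 CPM in ISOGK-treated mouse 4 and at 75.0 to 104 CPM in the other 7 libraries. *Clec4f*, another Kupffer cell marker, was at 73.0 CPM in vehicle-treated mouse 1 and at 163 to 231 CPM elsewhere. Other markers of the same list stood apart upward in that mouse. *Marco* was at 170 CPM there and at 9.17 to 57.6 CPM elsewhere, and *Adgre1* at 143 CPM and at 37.0 to 73.2 CPM elsewhere. *Timd4* was at 37.1 CPM there and at 3.51 to 17.4 CPM elsewhere. All of these genes were chosen after their values were seen.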
